A study of Mus musculus with 9 samples.

Results

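The hippocampus of CUG300 mice given vehicle was compared with that of CUG10 mice given vehicle, and 6 of the 9 RNA-seq samples of the series belong to these 2 groups. Samples were taken by their labels, 3 mice per group, each with its own library. All mice were male, wild-type C57BL/6J animals labelled as 10 weeks old (the methods give 9 weeks at injection). In CA1 of both hemispheres they had received AAV9 carrying Egfp with CTG repeats in its 3′-UTR, 10 repeats in CUG10 mice and 300 in CUG300 mice, and tissue was collected on day 10. Neither group was free of virus, Egfp or injection, so the comparison concerns repeat length between injected hippocampi. The model rests on a virus delivered to a young adult brain, not on a germline repeat. The other 3 samples, CUG300 mice given the compound CWG-cPIP, entered the choice of genes tested and the estimate of the spread. They did not enter the group means compared. Of 24411 gene rows, 14867 averaged log2(10) or more across the 9 mice and were tested. Values are regularized log2 (rlog) values, which compress genes with few reads, so the differences of such genes are understated. The number of reads per mouse is unknown.

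Transcripts with long CUG repeats fold into hairpins that bind Muscleblind-like (MBNL) splicing factors, and in myotonic dystrophy type 1 they are held in nuclear foci. Double-stranded or misfolded RNA can also be detected by innate sensors, which induce type I interferon. Interferon binds its receptor, JAK kinases then activate STAT transcription factors, which with IRF9 bind interferon-stimulated response elements in promoters, and interferon-gamma acts through a STAT dimer on a different element. In brain, microglia and astrocytes are the resident cells best known for such responses, and chemokines made there draw monocytes and lymphocytes from blood.

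Of the genes tested, 1592 (10.7%) differed between the groups (limma on all 9 mice, Benjamini-Hochberg adjusted p under 0.05). Higher levels in CUG300 mice were called for 1096 genes (7.37%) and lower levels for 496 (3.34%). The rises were larger than the falls: 660 genes rose by over 1 on the log2 scale, 259 by over 2 and 66 by over 3, whereas 326 fell by over 0.5 and 9 by over 1. Rises made up 68.8% of the calls, against 52.8% when each mouse was centred on its median and 58% under quantile scaling. The median difference was 1.21 among called rises and −0.56 among called falls, against −0.01 over all genes tested. The groups did not overlap in any of the 1096 rises and in 495 of the 496 falls. Over all genes tested, the groups did not overlap in 18.2% with CUG300 mice higher and in 16.7% with CUG300 mice lower.

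**Figure D1:**
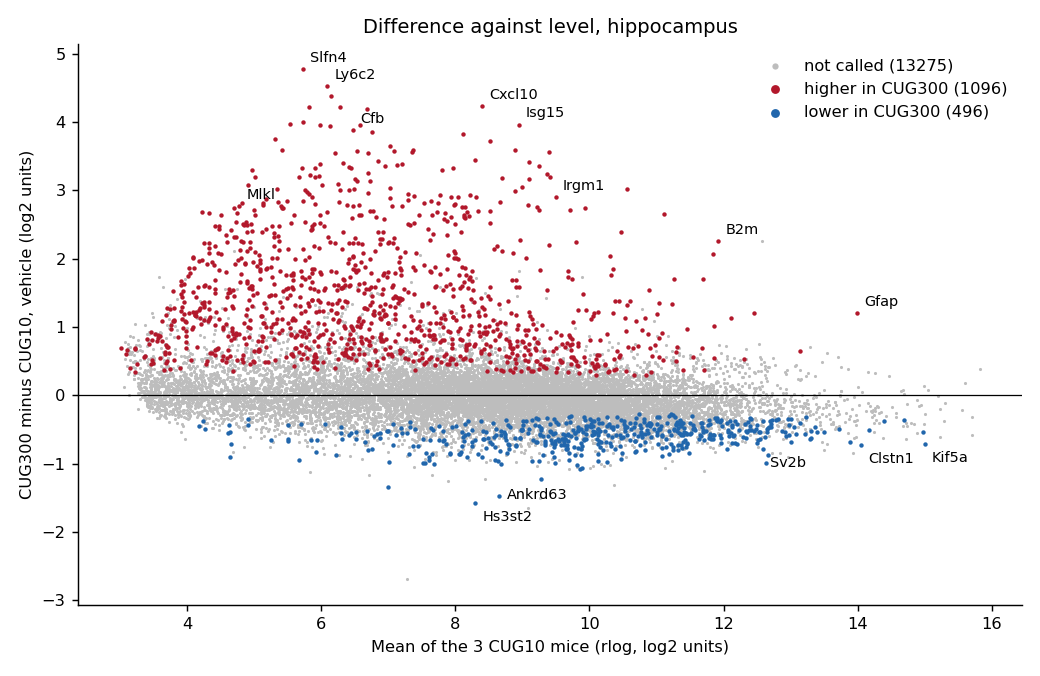
Difference between the group means (y axis, log2 units) against the mean of the 3 CUG10 mice (x axis, rlog in log2 units) for every gene tested, with genes called higher in red, called lower in blue and not called in grey. The red points reach 4.77 for Slfn4, and the blue points reach −1.58 for Hs3st2.

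Because the main fit pools each gene's spread over all 9 mice, a fit on the 6 compared mice alone was set beside it. That fit called 1297 genes higher (8.72%) and 481 lower (3.24%), and 1018 rises and 348 falls were called in both. When each of the 6 mice was left out of it in turn, 701 of the 1096 rises and 39 of the 496 falls kept their call every time. In the fit on 9 mice, leaving out CUG10 mouse 1 or 3 or CUG300 mouse 3 left 0 calls (3763, 3143 and 3256 genes at an unadjusted p under 0.05), and leaving out CUG10 mouse 2 left 2. Called genes named below kept their call in all 6 leave-outs of the 6-mouse fit unless the text says otherwise.

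The genes with the strongest evidence of a rise were mostly interferon-inducible GTPases, proteins that assemble on the membranes around intracellular pathogens. They came from the immunity-related GTPases (Irgm1, Irgm2, Igtp, Iigp1, Tgtp2) and the guanylate-binding proteins (Gbp6, Gbp7, Gbp10). Irgm2, on chromosome 11 from 58214977 to 58222783 of GRCm38, stood at 7.76, 8.73 and 7.89 in CUG10 mice and at 10.62, 10.98 and 10.71 in CUG300 mice. The difference was 2.64 (SE 0.28, limma adjusted p = 0.0207), or 6.24-fold. Genes named for the smallest p were taken only where the groups did not overlap, so their separation follows from that rule. Tgtp2 stood at 7.06, 7.94 and 7.08 against 10.88, 11.08 and 10.88, and its difference was 3.59 (SE 0.44, limma adjusted p = 0.0207). Within each group the values of Tgtp2 spanned less than 1 log2 unit. Gbp7, on chromosome 3 from 142530336 to 142550151, stood at 7.63, 8.25 and 7.91 against 10.54, 11.22 and 10.75, with a difference of 2.91 (SE 0.36, limma adjusted p = 0.0207). Iigp1 rose by 3.72, Igtp by 3.17, Gbp10 by 2.95, Gbp6 by 2.91 and Irgm1 by 2.90. These genes belong to families with close copies, and how reads were shared among the copies is not given, so the value of any single member is uncertain.

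Irf9, the DNA-binding partner of activated STAT factors, stood at 8.54, 9.10 and 8.94 in CUG10 mice and at 10.94, 10.87 and 11.01 in CUG300 mice, with a difference of 2.08 (SE 0.28, limma adjusted p = 0.0207). Of 16 STAT and IRF genes measured, 10 rose and 0 fell, with a median difference of 1.24. Stat2 rose by 2.20, Irf1 by 2.93 and Irf7, the factor that amplifies interferon-alpha transcription, by 3.59. Fewer of the genes upstream of them were called. Of 7 receptor chains and kinases, 2 rose, Ifnar2 by 0.80 and Jak2 by 0.69, with a list median of 0.16. Ifnar2 kept its call in 5 of the 6 leave-outs and Jak2 in 3. Ifnar1, its partner chain, stood at 9.28, 9.20 and 9.10 against 9.07, 9.41 and 9.45, and these values overlapped.

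Of the 6 interferon ligands listed, 2 were among the genes tested, and neither was called in the main fit. Ifnb1, the interferon-beta gene, stood at 3.48 in each CUG10 mouse and at 5.12, 4.05 and 4.88 in CUG300 mice. The CUG10 values were equal to 2 decimals. The difference was 1.20 (SE 0.36, limma adjusted p = 0.0603 on 9 mice and 0.0191 on 6 mice). Ifng, made by T and NK cells, stood at 3.22, 3.29 and 3.19 against 4.13, 3.79 and 3.78, with a difference of 0.67 (limma adjusted p = 0.0521 on 9 mice and 0.01 on 6 mice). For both ligands every CUG300 mouse lay above every CUG10 mouse, as in 18.2% of all genes tested. In CUG10 mice both lay near the limit of the filter on low values. Every CUG10 value of Ifng was below that limit, so Ifng was tested only because other mice had higher values. The separation alone therefore does not show a rise of either ligand.

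Most antiviral effectors rose. Of 13 RNA-binding effectors, 11 rose, with a median difference of 3.02, and the mean level of the list was 7.86 to 8.49 in CUG10 mice and 10.77 to 11.01 in CUG300 mice. Ifit1, which binds foreign RNA caps, stood at 9.02, 9.82 and 9.36 against 13.23, 12.55 and 13.11, with a difference of 3.57 (SE 0.56, limma adjusted p = 0.0207). Oasl1 rose by 3.54, Eif2ak2, which encodes the RNA-activated kinase PKR, by 2.60 and Zbp1, a sensor of Z-form nucleic acid, by 3.54. The members not called included Adar, which edits double-stranded RNA, at 0.34. All 5 genes of ISG15 conjugation rose (median 2.75), from the modifier Isg15 itself (8.41, 9.52 and 8.91 against 13.32, 12.36 and 13.03) to its activating enzyme Uba7 (2.50) and its protease Usp18 (3.44). All 10 restriction factors rose (median 2.37), among them Rsad2 by 3.82 and Bst2 by 3.35.

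Promoters of the leading genes were read for the sequences that these factors are known to bind. The patterns below were searched on either strand: the paired motif, which is GAAA, any 2 bases and GAAA again, the core of the interferon-stimulated response element, and the inverted motif, which is TTCNNNGAA, the core of the element bound by STAT dimers. Of the 24 rises named for the smallest p or the largest difference, 12 had a single promoter in the RefSeq table of GRCm38.p6, and 8 of these held the paired motif. They are shown because they are those 8, from 12 bases before the first match to 12 bases after the last, on the strand of the gene, with matches of either motif in capitals. Matches that touch or overlap run together.
Irgm2: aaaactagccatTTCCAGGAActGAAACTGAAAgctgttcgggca
Igtp: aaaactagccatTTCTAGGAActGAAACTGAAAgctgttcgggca
Tgtp2: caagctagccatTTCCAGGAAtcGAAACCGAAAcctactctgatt
Gbp7: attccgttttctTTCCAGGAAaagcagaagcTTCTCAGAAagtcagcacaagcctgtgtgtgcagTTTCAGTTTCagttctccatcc
Irgm1: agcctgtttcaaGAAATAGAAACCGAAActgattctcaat
Cxcl10: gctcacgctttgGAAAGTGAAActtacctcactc
Ifi205: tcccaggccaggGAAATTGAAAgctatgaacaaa
Isg15: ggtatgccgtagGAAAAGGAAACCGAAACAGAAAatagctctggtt
The windows lie upstream of the start, at chr11:58214890-58214934 (plus strand) for Irgm2, chr11:58199499-58199543 (plus) for Igtp, chr11:49064261-49064305 (minus) for Tgtp2, chr3:142530218-142530304 (plus) for Gbp7, chr11:48871423-48871462 (minus) for Irgm1, chr5:92349081-92349114 (minus) for Cxcl10, chr1:174031868-174031901 (minus) for Ifi205 and chr4:156200863-156200908 (minus) for Isg15. In Irgm2, Igtp and Tgtp2 the inverted motif stands a pair of bases before the paired motif. The windows of the neighbouring genes Irgm2 and Igtp differ at 1 of 45 bases, so they are not independent examples. Isg15 holds 3 overlapping matches of the paired motif and Irgm1 holds 2. Slfn4, H2-DMb1, Jchain and Ms4a4c had no match of either motif in their windows.

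Over all genes with a single listed promoter, the paired motif stood in 3.58% of 22862 windows of 300 bases. Among called genes that could be matched, it stood in 12.5% of 665 rises and in 1.53% of 262 falls, and in 2.44% of 7990 genes that were not called. Its share was 5.24% for rises of up to 1 on the log2 scale, 8.57% from 1 to 2, 27.4% from 2 to 3 and 44.4% (16 of 36 genes) above 3. The inverted motif stood in 8.49% of all windows, in 6.51% of genes that were not called and in 5.73% of falls. Among rises it stood in 11.7%, and in 25% (9 of 36 genes) of those above 3. Of the 24 named falls, 17 had a single promoter, and 0 held the paired motif. A match describes the letters of these windows and shows no binding, and an absent match says nothing of more distant elements.

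**Figure D2:**
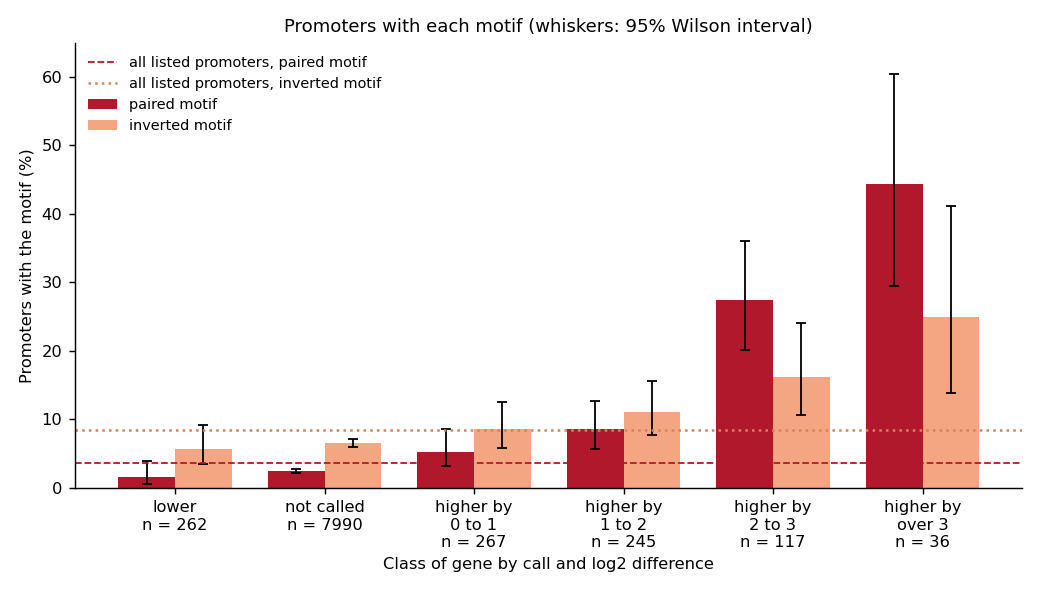
Share of promoters (y axis, percent) that hold the paired motif (red) or the inverted motif (light red) in 6 classes of genes (x axis: called lower, not called, and called higher by size of the log2 difference), with 95% Wilson intervals that cover counting error only. The red bars go from 1.53% in called falls to 44.4% in rises above 3, against the dashed line at 3.58% for all promoters.

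Genes of antigen presentation were among the rises. B2m, the light chain shared by all class I molecules, stood at 11.94, 12.17 and 11.66 in CUG10 mice and at 14.08, 14.06 and 14.38 in CUG300 mice, with a difference of 2.25 (SE 0.36, limma adjusted p = 0.0207). H2-D1, a classical class I heavy chain, rose by 2.07, and its value may share reads with other class I genes. Among 5 immunoproteasome subunits and activators, 4 rose (median 1.83), with Psmb8 at 3.18 and Psmb9 at 2.77. Among 18 subunits of the constitutive proteasome, 1 rose, Psmb2 by 0.44, a count near the 7.37% of all genes tested. The median of these 18 was 0.33, and the 6-mouse fit called 0 of them. The difference between the induced and the constitutive list was not tested. Of 8 peptide-loading genes 5 rose, Tap1 by 2.83, Tap2 by 2.27 and Tapbp by 2.24, whereas the general chaperones Calr and Pdia3, at 0.35 and 0.43, were not called.

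All 8 genes of the class II pathway rose, with a median of 2.20. H2-Aa stood at 7.73, 8.51 and 6.98 against 10.08, 10.53 and 11.04, Cd74 rose by 2.78, and Ciita, the transactivator of class II genes, by 1.09, with a call in 3 of the 6 leave-outs. H2-DMb1, which edits class II peptides, stood at 5.87, 6.02 and 5.53 against 7.34, 7.63 and 7.65, a difference of 1.73 (SE 0.23, limma adjusted p = 0.0207). Of 8 costimulatory and checkpoint ligands, 4 rose in the main fit and 8 in the 6-mouse fit. The largest of these rises was that of Cd274 (PD-L1), at 6.52, 7.49 and 7.05 against 9.91, 10.10 and 10.14, a difference of 3.03.

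**Figure D3:**
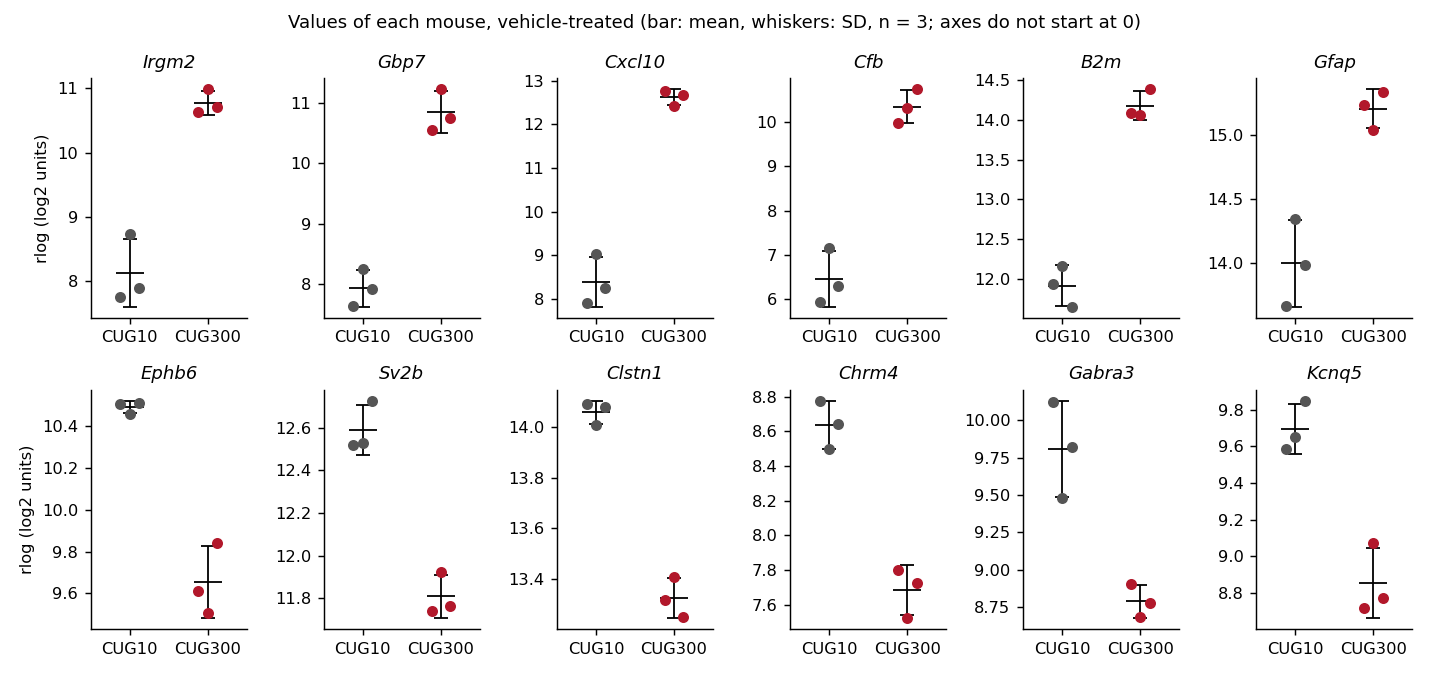
Values of each mouse (y axis, rlog in log2 units, not starting at 0) for 6 genes that rose (upper row) and 6 that fell (lower row), with CUG10 mice in grey and CUG300 mice in red, and the mean and SD of 3 mice. In every panel the groups are apart, as in nearly all called genes, by more in the upper row (Cxcl10, difference 4.24) than in the lower row (Clstn1, difference −0.73).

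Chemokines were among the largest rises. Of 7 CXC chemokines 5 rose and of 13 CC chemokines 9 rose. Cxcl10, a ligand of CXCR3 on T and NK cells, stood at 7.91, 9.02 and 8.24 against 12.77, 12.43 and 12.68, an 18.8-fold difference. Ccl2, which draws monocytes through CCR2, stood at 6.05, 6.57 and 6.22 against 11.02, 10.04 and 10.43. Cxcl9, Cxcl11, Ccl5 and Ccl7 rose by 3.09, 3.30, 3.36 and 4.22. Cxcl11 is annotated as a transcribed pseudogene in GRCm38.p6. Members of both families that were not called included Cxcl14, with a difference of −0.33, and Ccl27a, a chemokine best known from skin, with −0.51.

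Humoral and sensing arms of innate immunity rose as well. Of 16 complement genes 13 rose (median 1.52). Cfb, the protease of the alternative pathway, on chromosome 17 from 34856374 to 34862514, stood at 5.94, 7.17 and 6.30 against 9.98, 10.31 and 10.73, a 14.7-fold difference (log2 3.88, SE 0.79, limma adjusted p = 0.0256). C3 rose by 2.79 and Serping1, the C1 inhibitor, by 2.39, while the regulator Cd59a, at 0.55, was not called. All 5 genes of the Fc gamma receptor list, which includes a signalling chain, rose. Fcgr3 stood at 7.88, 7.93 and 7.56 against 8.72, 9.02 and 9.01 (difference 1.12, SE 0.14, limma adjusted p = 0.0207), and Fcgr4 rose by 2.91. Of 14 Toll-like receptors and adaptors 10 rose, Tlr2 most, by 2.61, and the adaptor Myd88 by 1.91, whereas Ticam1, the adaptor of TLR3, stood at 0.35 and was not called.

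Genes of inflammatory cell death followed. Mlkl, the membrane-rupturing protein of necroptosis, stood at 4.66, 4.98 and 4.68 in CUG10 mice and at 7.58, 7.29 and 7.77 in CUG300 mice, with a difference of 2.77 (SE 0.56, limma adjusted p = 0.0252). Of 12 genes of death receptors and necroptosis 10 rose, including Casp8 by 1.61, Ripk1 by 1.17 and Tnf by 1.58. Of 11 genes of the inflammasome 6 rose, Casp4, the sensor caspase for cytosolic lipopolysaccharide, by 2.47, Casp1 by 1.85 and the pore protein Gsdmd by 1.81. Nlrp3, at 0.69, kept its call in 2 of the 6 leave-outs. Of 13 genes of the integrated stress and unfolded protein response 5 rose. Atf3 stood at 6.18, 6.52 and 6.10 against 9.001, 8.501 and 9.774, a difference of 2.82 (SE 0.64, limma adjusted p = 0.0314), while Atf4, a central factor of the pathway, stood at 0.51 and was not called. Of 13 p53 targets 0 rose and 1 fell, whereas the 6-mouse fit called 4 higher and 0 lower. Cdkn1a, a cell cycle inhibitor in that list, stood at 1.09 (limma adjusted p = 0.158 on 9 mice and 0.0491 on 6 mice).

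Cell type markers were then read list by list. In bulk tissue fewer cells of a type and less RNA per cell cannot be told apart, and the same holds for more of either. Monocyte markers rose in 5 of 8 genes, Ly6c2 at 5.98, 6.31 and 5.97 against 10.16, 10.51 and 11.16, Plac8 by 4.38 and Ccr2 by 2.82. Ly6c2 has a close copy, Ly6c1, with which its reads may be shared. T cell markers rose in 7 of 11 genes (10 in the 6-mouse fit), Cd3d by 1.55, Lck by 1.57 and Cd8a by 1.21, whereas Cd4 stood at 0.40 and was not called. Cytotoxic markers rose in 6 of 7 genes. Gzmb, a granule protease, stood at 4.83, 5.15 and 5.05 against 7.96, 8.33 and 8.34, a difference of 3.20 (SE 0.64, limma adjusted p = 0.0246). Of 5 B and plasma cell markers 3 rose, and the list spread more among the CUG300 mice than the monocyte, T cell and cytotoxic lists, from 5.11 to 7.13. Jchain, the joining chain of secreted antibodies, stood at 5.63, 6.74 and 5.55 against 7.94, 10.04 and 11.79, and Mzb1, a plasma cell chaperone, at 4.24, 4.81 and 4.36 against 5.52, 6.93 and 8.25. Jchain kept its call in 3 of the 6 leave-outs and Mzb1 in 1. Of 8 neutrophil markers listed, 0 were among the genes tested.

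Markers of microglia were read as a homeostatic and a disease-associated list. Of 12 markers of homeostatic microglia 4 rose and 0 fell, with a median of 0.23. Tmem119 stood at 9.13, 9.48 and 9.10 against 10.01, 9.99 and 10.01 (difference 0.77) and kept its call in 5 of the 6 leave-outs. P2ry12, the purinergic receptor of process extension, stood at 8.80, 8.48 and 8.24 against 8.31, 8.47 and 7.72 and was not called. Of 16 markers of disease-associated microglia 5 rose and 0 fell (9 rose in the 6-mouse fit), with a median of 1.19. Among them Lgals3 rose by 3.14 and Cst7 by 2.48. Trem2, the receptor that this state depends on, stood at 8.40, 9.02 and 8.36 against 8.92, 8.04 and 9.03, and its values overlapped between the groups. Apoe, another of that state's genes, stood at −0.13 and was not called.

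Reactive astrocyte markers rose in 12 of 14 genes, with a median of 1.78. Gfap, the intermediate filament of astrocytes, stood at 13.66, 14.34 and 13.98 against 15.24, 15.04 and 15.34, a 2.31-fold difference (log2 1.21, SE 0.25, limma adjusted p = 0.0267). Tgm1 rose by 3.40, Cd44 by 2.88, Timp1 by 2.84 and Osmr, a receptor for oncostatin M, by 2.02. Of 13 genes of homeostatic astrocytes 1 rose, the water channel Aqp4 by 0.91 with a call in 5 of the 6 leave-outs, a count near the 7.37% of all genes tested, and the median was −0.39. Slc1a2, the main glutamate transporter, stood at 14.002, 13.812 and 13.973 against 12.98, 13.65 and 12.62, without overlap but also without a call (−0.85, limma adjusted p = 0.128). In the list of endothelial activation, Icam1 rose by 2.08 and Vcam1 by 1.73, adhesion molecules for leukocytes, and 4 of 5 genes rose in all. Which cells made these transcripts cannot be told from bulk tissue. Of 10 endothelial barrier genes 0 were called, with a median of 0.12 and 7 of 10 above 0.

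Oligodendrocyte lists stood lower with few calls, where 3.34% of all genes tested were called lower. Of 11 precursor and premyelinating markers all were below 0 (median −0.47), and 1 fell, Neu4, at 6.83, 7.10 and 7.03 against 5.91, 5.94 and 5.10. Gpr17, a receptor of premyelinating cells, stood at 9.12, 9.48 and 9.20 against 7.997, 8.245 and 7.043. Its groups did not overlap, and the difference of −1.50 had a limma adjusted p = 0.0643 on 9 mice and 0.0149 on 6 mice. The mean level of the whole list was 8.66 to 8.94 in CUG10 mice and 7.94 to 8.27 in CUG300 mice. Of 12 myelin genes 0 were called (median −0.56), and their mean level overlapped between the groups, at 11.79 to 12.26 against 10.94 to 12.18.

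**Figure D4:**
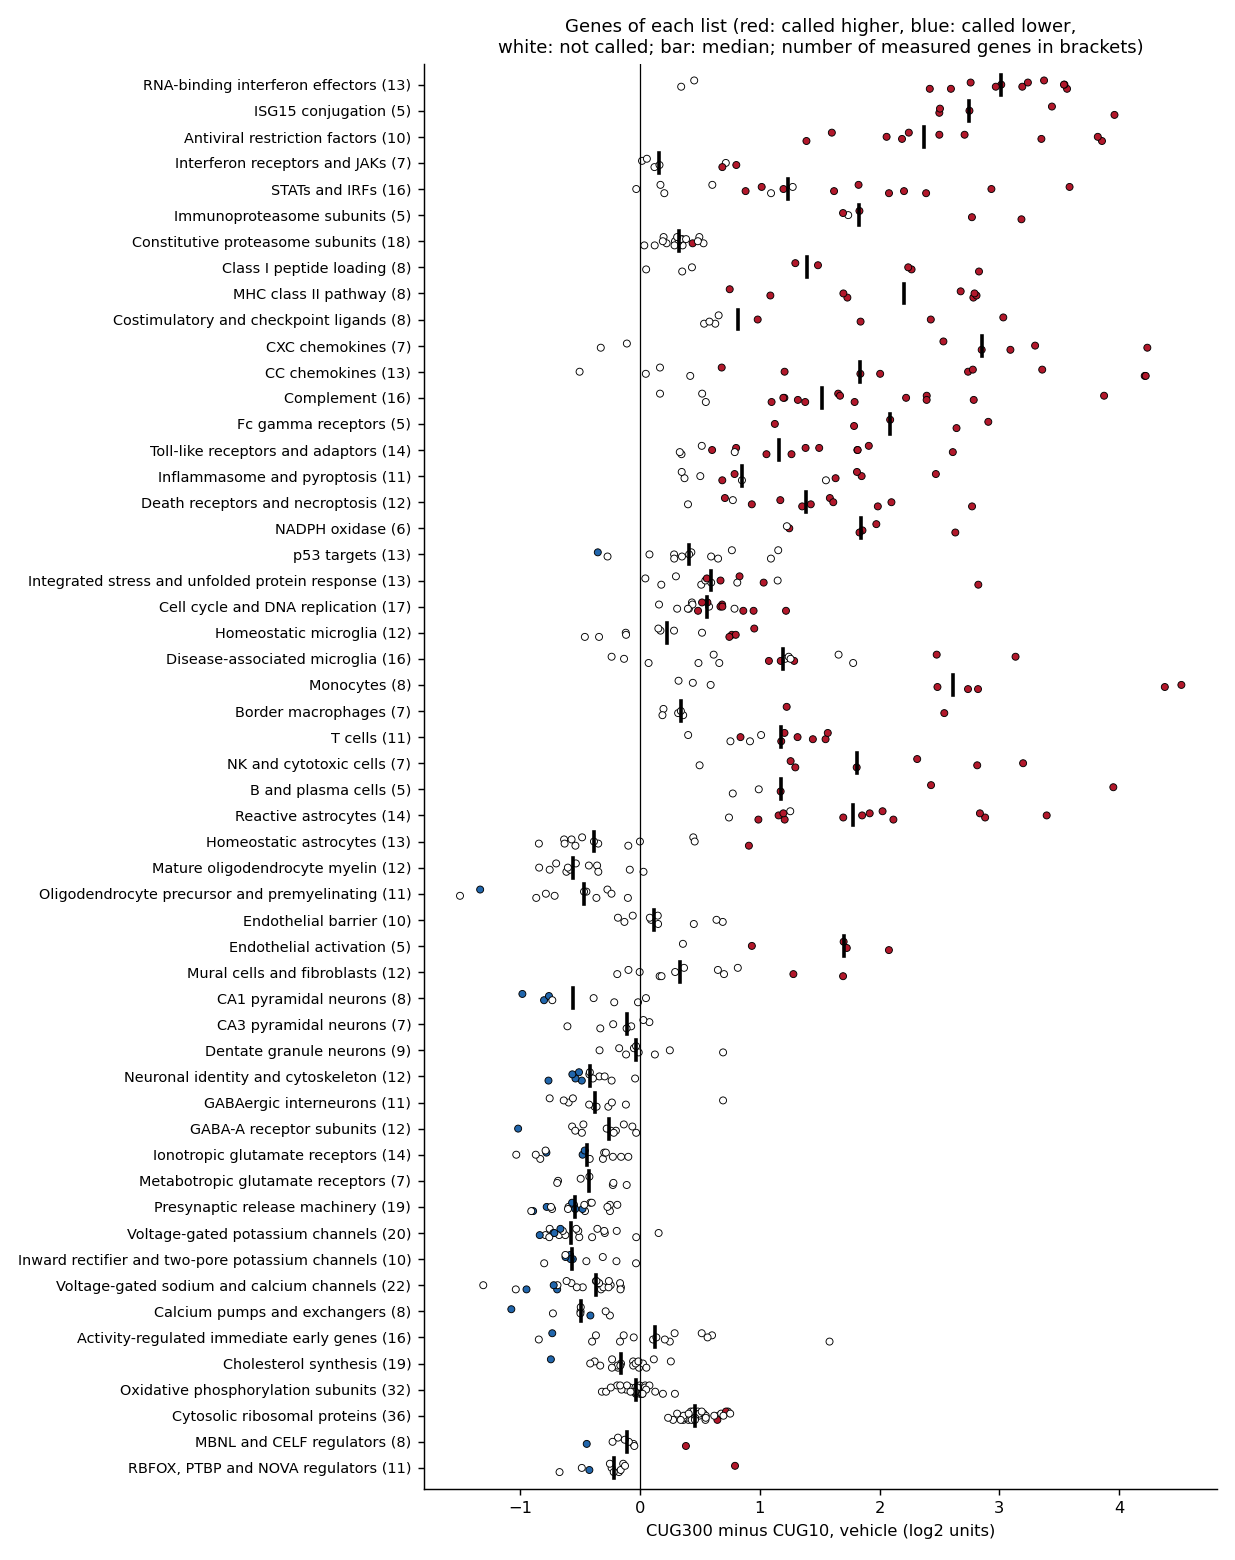
Difference between the group means (x axis, log2 units) of every measured gene in each list other than those of neighbouring tissues (y axis, number of genes in brackets), with called rises in red, called falls in blue, uncalled genes in white and the list median as a bar. Immune lists lie to the right, up to a median of 3.02, and 13 of the 14 neuronal lists have a median below 0, down to −0.58 for voltage-gated potassium channels, with immediate early genes at 0.12.

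Among neurons the falls were small and spread over many gene families. The 14 neuronal lists held 175 genes, of which 0 rose and 31 fell, 17.7% against 3.34% of all genes tested. The lists were written with earlier results of these data known, so this excess is a description and no independent support. Of the 175, 158 were below 0, with a median of −0.40, and 26 were called in both fits. The list medians were below 0 in 13 of the 14 lists, the exception being activity-regulated immediate early genes, with a median of 0.12 and 9 of 16 genes above 0. In that list 0 genes rose and 1 fell (0 and 2 in the 6-mouse fit). Its mean level overlapped between the groups, at 9.44 to 9.86 in CUG10 mice and 9.30 to 10.30 in CUG300 mice. The strongest evidence of a fall was for genes of synapses and neuronal membranes. Ephb6, a kinase-dead Eph receptor on chromosome 6 from 41603834 to 41620509, stood at 10.51, 10.46 and 10.51 in CUG10 mice and at 9.61, 9.51 and 9.84 in CUG300 mice, with a difference of −0.84 (SE 0.10, limma adjusted p = 0.0207). Sv2b, a synaptic vesicle glycoprotein, stood at 12.52, 12.53 and 12.73 against 11.74, 11.93 and 11.76, and fell by 0.78. Clstn1, which links cargo to kinesin, stood at 14.09, 14.01 and 14.08 against 13.32, 13.41 and 13.25, and fell by 0.73. These genes were named from called genes whose groups did not overlap, so their separation follows from that rule. Over all genes tested, 16.7% did not overlap with CUG300 mice lower.

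Further falls of this kind were those of Syngr1 (0.68 on the log2 scale), a vesicle protein, and Srcin1 (0.79), a scaffold of dendritic spines. Ngef, a guanine nucleotide exchange factor in axons, fell by 0.85 and Rab15 by 0.62, the latter called in 5 of the 6 leave-outs. Among receptors that damp transmitter release, Chrm4, the muscarinic M4 receptor, stood at 8.77, 8.50 and 8.64 against 7.80, 7.52 and 7.73 (−0.95, SE 0.13, limma adjusted p = 0.0207), and Hrh3, the histamine H3 receptor, fell by 0.72. Of 19 genes of the release machinery 5 fell, and all 19 were below 0 (median −0.54). Stx1a, the syntaxin of the fusion complex, stood at 11.22, 10.98 and 11.03 against 10.43, 9.97 and 10.15, and fell by 0.89. Of the other called members, Sv2a and Cplx1 fell by 0.48 and 0.57, and each kept its call in 2 of the 6 leave-outs.

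Receptor and channel families stood mostly below 0, with few members called, where 3.34% of all genes tested were called lower. All 12 GABA-A receptor subunits (median −0.26) and all 14 ionotropic glutamate receptor genes (median −0.44) were below 0. So were 19 of 20 voltage-gated potassium channel genes (median −0.58) and all 22 sodium and calcium channel genes (median −0.37). Of 12 GABA-A receptor subunits 1 fell, Gabra3, at 10.12, 9.48 and 9.82 against 8.91, 8.68 and 8.78 (−1.02). Of 14 ionotropic glutamate receptor genes 3 fell, Gria4 by 0.78, Gria3 by 0.48 and Grin1 by 0.46, and Gria1 and Gria2, the main AMPA receptor subunits of pyramidal neurons, stood at −0.31 and −0.23. The 6-mouse fit called Gria4, which kept its call in 4 of its 6 leave-outs, but neither Gria3 nor Grin1. Of 20 voltage-gated potassium channel genes 4 fell. Kcnq5, an M-current subunit, stood at 9.59, 9.65 and 9.85 against 8.72, 9.07 and 8.77 (−0.84, SE 0.13, limma adjusted p = 0.0207), and Kcnh3 fell by 0.72, with a call in 4 of the 6 leave-outs. Of 22 sodium and calcium channel genes 3 fell, Cacna1i, a T-type channel, by 0.95 and Cacnb4 by 0.72, the latter called in 4 of the 6 leave-outs. Scn4b had the largest difference of that list, at 9.67, 10.73 and 10.71 against 9.53, 9.03 and 8.62, and was not called (−1.31, limma adjusted p = 0.0519). Atp2b4, a plasma membrane calcium pump, fell by 1.08 and kept its call in 4 of the 6 leave-outs.

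The largest falls outside these families included Ankrd63, at 8.41, 8.47 and 9.08 against 7.67, 7.11 and 6.78 (−1.47, SE 0.25, limma adjusted p = 0.0218). Hs3st2, which sulfates heparan sulfate, stood at 8.43, 8.09 and 8.37 against 7.11, 5.74 and 7.32, and kept its call in 3 of the 6 leave-outs. Plekhh1 fell by 1.22 and Fhod3, an actin-binding formin, by 1.01. Among the most highly expressed falls, Kif5a, a neuronal kinesin, stood at 14.93, 14.95 and 15.12 against 14.26, 14.07 and 14.54 and fell by 0.71, with a call in 3 of the 6 leave-outs. Aplp1 and Syt1, the calcium sensor of vesicle fusion, fell by 0.38 and 0.51 in the main fit and were not called in the 6-mouse fit.

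Regional neuron lists differed in their calls. Of 8 CA1 markers 3 fell, among them Fibcd1 by 0.80 and Mpped1 by 0.76, and the mean level of the list was 9.82 to 10.20 against 9.41 to 9.59. Fibcd1 kept its call in 2 of the 6 leave-outs and Mpped1 in 3. Of 7 CA3 and 9 dentate granule cell markers 0 were called, with medians of −0.11 and −0.03. With 3.34% of all genes tested called lower, 0 calls are common in lists of this size. The dentate list ranged from 7.69 to 9.08 among the CUG300 mice alone. Whether CA1 changed more than CA3 or the dentate gyrus was not tested. Of 11 interneuron markers 0 were called in the main fit, with a median of −0.38. Of 12 genes of neuronal identity and cytoskeleton 5 fell, Ina, an intermediate filament of neurons, by 0.77 and Nefh by 0.57. Ina kept its call in 4 of the 6 leave-outs and Nefh in 1.

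Metabolic lists held few calls, where 7.37% of all genes tested were called higher and 3.34% lower. Of 32 subunits of oxidative phosphorylation 0 were called, with a median of −0.03 that turned to 0.01 under quantile scaling. Of 19 cholesterol synthesis genes 1 fell, and their median was −0.16. All 36 ribosomal protein genes were above 0 (median 0.45) but 2 rose, among them Rpl27 by 0.65 (not called in the 6-mouse fit). Their mean level overlapped between the groups. Of 8 MBNL and CELF genes, Mbnl1 rose, at 10.45, 10.38 and 10.37 against 10.79, 10.84 and 10.72 (0.38, SE 0.08, limma adjusted p = 0.0289), and Celf5 fell by 0.45. Mbnl1 kept its call in 2 of the 6 leave-outs, and Celf5 was not called in the 6-mouse fit. Ptbp1, a splicing repressor of non-neuronal cells, stood at 9.02, 9.02 and 8.93 against 9.62, 9.74 and 9.99 and rose by 0.79, and Nova2, a neuronal splicing factor, fell by 0.42 on the log2 scale and kept its call in 2 of the 6 leave-outs.

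Markers of tissue next to the hippocampus varied between mice, and all of those listed passed the filter on low values. The 8 measured CA1 markers had mean levels of 9.41 to 10.20 over the 6 mice, and the 12 choroid plexus markers ranged from 5.86 to 8.52 in CUG10 mice and from 7.74 to 8.90 in CUG300 mice. Ttr, the carrier protein secreted by choroid plexus, stood at 9.78, 13.20 and 14.74 against 15.89, 13.88 and 14.74, so CUG10 mouse 1 had the least of it. Markers of striatum, 8 genes, ranged from 6.82 to 8.52 and from 6.44 to 7.68. Of the genes in these 2 lists 0 were called, all 12 of choroid plexus stood above 0 and all 8 of striatum below 0. Of 8 markers of cortical layers 2 fell, Tbr1 (10.42, 10.13 and 10.21 against 9.38, 9.25 and 9.23) and Lamp5 by 0.74 (called in 2 of the 6 leave-outs), and the list stood at 7.72 to 8.04 against 7.31 to 7.47.

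With a covariate for the choroid plexus list (its mean in each mouse), the 6-mouse fit called 778 genes higher and 85 lower, and the 9-mouse fit called 1 gene (3337 at an unadjusted p under 0.05). With the same for striatum, the 6-mouse fit called 819 higher and 86 lower, and the 9-mouse fit again called 1 (2988 at an unadjusted p under 0.05). Without CUG10 mouse 1, the 6-mouse fit called 812 higher and 105 lower. The part of cortical tissue in the falls was not tested. These covariates were chosen after seeing the data.

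**Figure D5:**
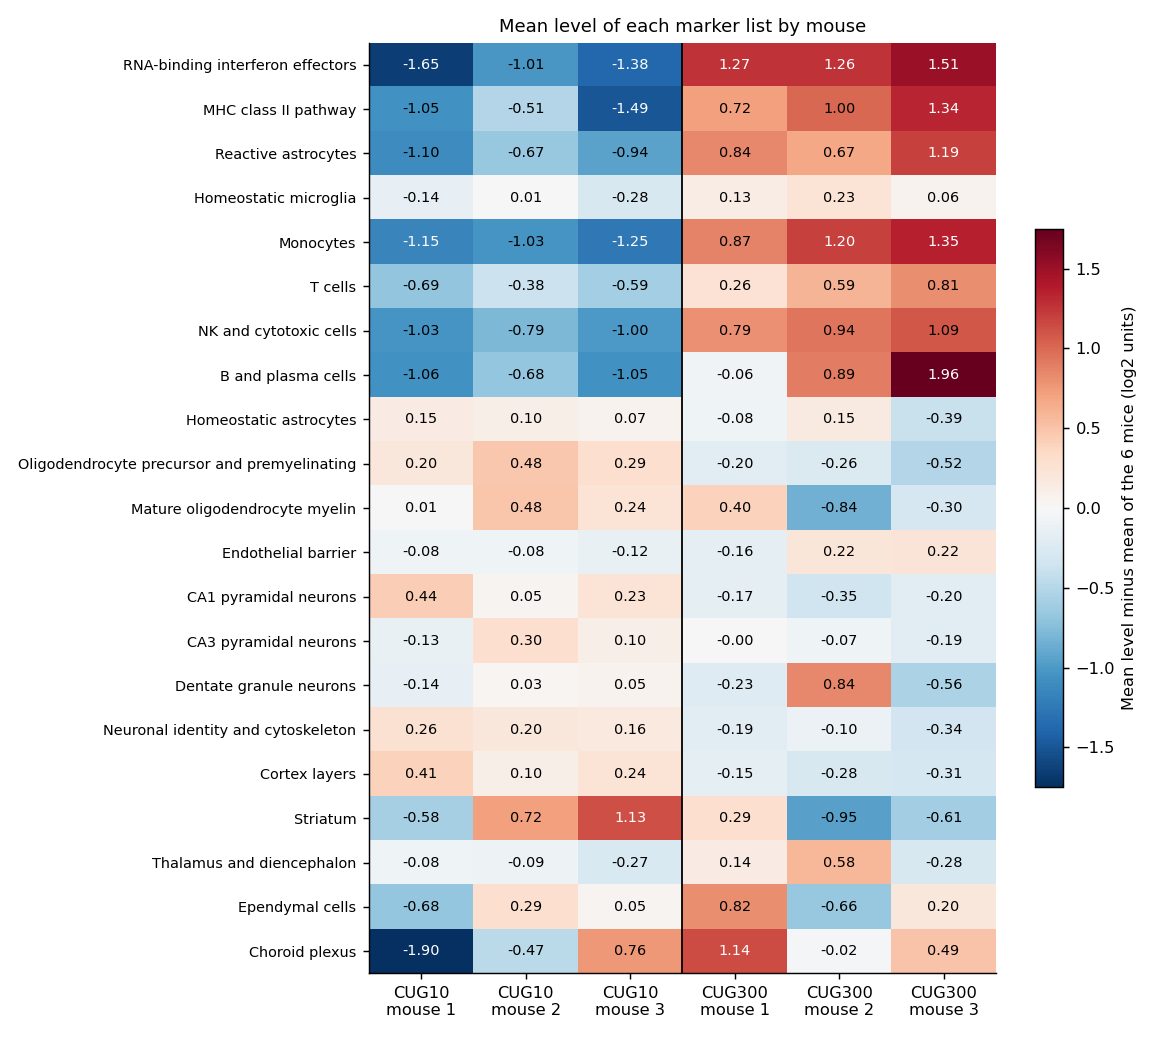
Mean level of marker lists in each of the 6 mice (columns), shown as the difference from the mean of the 6 mice in log2 units (colour and printed value). Interferon, astrocyte reactivity and leukocyte lists split the groups, whereas choroid plexus, striatum, myelin and dentate lists vary within them.

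The mice also differed in degree within their groups. Among the 1096 rises, CUG300 mouse 3 was the highest of its group in 71.1%, against 30.6% of all genes tested. CUG10 mouse 2 was the highest of the CUG10 mice in 69.7% of the rises, against 28.3% of all genes. The same held for 34 of the 38 called genes in the interferon lists, such as Iigp1, at 7.91, 9.21 and 8.41 in CUG10 mice. The median SD within a group was 0.10 in CUG10 mice and 0.22 in CUG300 mice.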

How the data were processed

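The deposited files hold 1 value per gene for each of 9 hippocampi. Per the labels and the methods, the authors used Trim Galore 0.6.6 for trimming, STAR 2.7.9a for alignment to mm10 and RSEM 1.3.3 for quantification, and made regularized logarithm (log2) values with DESeq2 1.36.0, which are the values they deposited. Gene annotation and the use of strand are not given in the sources used here, so overlapping and antisense genes cannot be told apart. The values scale libraries by size factors and shrink genes with few reads. They hold no counts, so depth is unknown and no count model was used.

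Genes that averaged log2(10) or more were fitted with limma 3.58.1 in R 4.3.3, with 1 mean per group, a variance trend and 3.03 prior degrees of freedom, over all 9 mice, and the 2 vehicle groups were contrasted. Benjamini-Hochberg adjustment ran over all genes tested, and 0.05 was the threshold. A fit on the 6 compared mice was an alternative, and leaving out each of its mice, and the choroid plexus and striatum covariates, were chosen after seeing the data. The procedure was tested on simulated data. P-values of the main fit rest on 1 variance per gene, pooled within groups over all 9 mice (3 per group, CWG-cPIP mice included) and moderated towards the trend. Those of the other fit rest on the spread within the 2 compared groups.

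The members and the 61 gene lists were chosen with earlier results of these data known. Named genes were the 12 rises and 12 falls with the smallest p and the 12 of each with the largest difference among called genes without overlap (leaving out predicted names), in each list the first 2 in written order and the 2 that differed most, and the 5 most highly expressed rises and falls. The genes named after their values were seen were Adar, Apoe, Cacna1i, Cacnb4, Calr, Casp8, Ccl27a, Ccl5, Cd4, Cd59a, Cd8a, Ciita, Cplx1, Cxcl14, Eif2ak2, Gria3, Gria4, Grin1, Gsdmd, Jak2, Kcnh3, Ly6c1, Mpped1, Nova2, Osmr, Pdia3, Psmb2, Ripk1, Rpl27, Serping1, Sv2a, Tapbp, Ticam1, Timp1, Tnf and Zbp1. Not every gene that met this rule is printed. Symbols turned into dates (23 among genes tested) were tested and not named. Coordinates and promoters come from RefSeq, GRCm38.p6, the same build as mm10, matched by symbol. Motifs were counted in genes with 1 listed promoter.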

Additional observations from a re-analysis of the deposited data

How the results depend on the processing

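The number of genes called depended most on which mice were in the fit. When 1 of the 9 mice was left out, the number called ranged from 0 to 2490, with 0 to 1525 higher and 0 to 1166 lower, against 1592, 1096 and 496. It was 0 without CUG10 mouse 1 or 3 or CUG300 mouse 3 (smallest limma adjusted p 0.0841, 0.101 and 0.0562), 2 without CUG10 mouse 2, 265 without CWG-cPIP mouse 1 and 2490 without CUG300 mouse 2. The spread of the CWG-cPIP mice enters these fits, and a fit on the 6 compared mice called 1778 genes, 1297 higher and 481 lower. Leaving out 1 of those 6 gave 845 to 3431 calls, 794 to 1876 higher and 51 to 1555 lower.

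Centring each mouse on its median called 1014 higher and 908 lower, and quantile scaling 888 and 642. A mean of at least log2(100) left 11281 genes, of which 725 were higher and 454 lower. Without a filter (19236 genes), without the trend or with robust estimation the counts stayed within 1.5 times. With a choroid plexus covariate the 9-mouse fit called 1 gene (0 higher and 1 lower) and the 6-mouse fit 863 (778 and 85). With a striatum covariate they called 1 (1 higher and 0 lower) and 905 (819 and 86). The leave-outs of the 6-mouse fit and both covariates were chosen after seeing the data. The causes were not tested.

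Replicate numbers were shared between groups, but deviations of same-numbered CUG10 and CUG300 mice correlated at 0.143, −0.215 and −0.0185, so the numbers did not pair the mice. With the replicate block, 1512 genes were called, 1107 higher and 405 lower.

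Of the 122 called genes named, 0 changed direction under any alternative. The groups did not overlap in nearly all called genes, so leaving out a mouse could hardly have turned their direction. The filter, trend, robust and 6-mouse settings leave the difference of means as it was. This count of 0 therefore says little about how firm the calls are. Among uncalled genes, Trem2 (0.07) turned to −0.0062 under median centring, to −0.0536 and −0.0508 with the choroid plexus covariate in 9 and 6 mice, and ranged from −0.1122 to 0.3824 when 1 mouse was left out. Ifnar1 (0.12) turned to −0.0230 and −0.0221 with the striatum covariate. Depth is unknown, and rlog values of genes with few reads are pulled together, so small differences of such genes could not be resolved.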

Other observations

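A few genes that were not called stood at separate levels within a group, and they were picked after their values were seen. Eif3j1, a subunit of translation initiation factor 3, stood at 8.28, 9.03 and 4.54 in CUG10 mice and at 4.62, 4.58 and 4.57 in CUG300 mice. Its near-identical copy Eif3j2 stood at 9.55, 8.09 and 10.01 and at 10.50, 10.04 and 10.33, and was lowest in the mouse in which Eif3j1 was highest. Amd1, which encodes S-adenosylmethionine decarboxylase, stood at 4.69, 4.70 and 4.71 in CUG10 mice and at 4.78, 7.84 and 7.82 in CUG300 mice, and its copy Amd2 at 11.76, 11.76 and 11.82 and at 11.68, 11.27 and 11.29. Hba-a1, an alpha-globin gene with a close copy, stood between 3.62 and 3.71 in 5 of the 6 mice and at 8.28 in CUG300 mouse 2.

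In genes also picked after their values were seen, CUG300 mouse 3 stood above the other CUG300 mice. Arg1, arginase of alternatively activated macrophages, stood at 6.15, 6.28 and 8.26 in CUG300 mice against 4.12 to 4.27 in CUG10 mice. Egr2, an activity-regulated transcription factor, stood at 9.01, 8.53 and 10.52 against 7.58 to 8.12, and was not called (limma adjusted p = 0.133).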
